A study of Homo sapiens with 2 samples.

Results

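The genes described here are 10 components of the microRNA pathway, compared between A549 cells with a knockdown of MYOCD and A549 cells labelled wild type. The members are DROSHA, DGCR8, XPO5, DICER1, TARBP2, PRKRA, EIF2C1, EIF2C2, EIF2C3 and TNRC6A, chosen by name, and all 10 were found among 12936 named genes of the deposited table. EIF2C1, EIF2C2 and EIF2C3 are older symbols of the Argonaute genes AGO1, AGO2 and AGO3. A549 is an established human lung adenocarcinoma line, and MYOCD encodes myocardin, a coactivator of serum response factor. Each group had 1 library of total RNA from cells grown in DMEM with serum. Doxycycline for 72 h is listed for both libraries, yet the series' design describes the wild type cells as having had no treatment, so a difference between the libraries and one between treated and untreated cells cannot be told apart. The knockdown sample carries the title MYOCD-/- and the genotype label of a knockdown, and the method of knockdown was one not given in the sources used here.

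MicroRNAs are cut out of longer transcripts in steps. In the nucleus the Microprocessor, made of the nuclease DROSHA and the RNA-binding protein DGCR8, releases a hairpin from the primary transcript, and exportin 5, the product of XPO5, carries it to the cytoplasm. There DICER1 cuts off the loop, helped by the RNA-binding proteins encoded by TARBP2 and PRKRA, and 1 strand is loaded into an Argonaute protein, which recruits TNRC6 proteins to repress matching messages. The Microprocessor is also known to cut hairpins in the message of DGCR8 itself, and these hairpins are annotated as microRNA genes.

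Members of the pathway that lie in loci with microRNA genes were identified first, since they limit what a locus value can be read as. DGCR8, on the plus strand of chr22:20080232-20111877 (GENCODE release 29, GRCh38), holds MIR3618 at chr22:20085746-20085833 and MIR1306 at chr22:20086058-20086142. The MIR3618 hairpin overlaps a 5′ UTR exon and the MIR1306 hairpin the coding sequence in 4 of 4 annotated coding transcripts. DICER1, on the minus strand of chr14:95086228-95158010, holds MIR3173 at chr14:95137919-95137986, which overlaps an exon in 0 of 9 coding transcripts and is intronic in the 5 that span it. The other 8 members hold no microRNA, small nucleolar RNA or small Cajal body RNA gene on their own strand. The mature microRNAs of these 3 hairpins are shown as RefSeq lists them (GRCh38.p14), 5′ to 3′ with the seed (bases 2 to 8) in capitals, because they are the annotated products that share a locus with DGCR8 and DICER1.
hsa-miR-3618 (inside DGCR8): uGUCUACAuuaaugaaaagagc
hsa-miR-1306-5p (inside DGCR8): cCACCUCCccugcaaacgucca
hsa-miR-1306-3p (inside DGCR8): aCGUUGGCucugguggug
hsa-miR-3173-5p (inside DICER1): uGCCCUGCcuguuuucuccuuu
hsa-miR-3173-3p (inside DICER1): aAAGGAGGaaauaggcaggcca
None of the 3 hairpin genes had a line of its own in the values used here.

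The authors deposited RPKM values, which divide a locus's reads by its length and by the reads mapped in the library. No read counts came with them, so depth is unknown and counting error could not be estimated. With 1 library a group there is no replicate error and no difference was tested. Sizes are therefore read beside all named genes averaging 1 RPKM or more, which numbered 12158 and include all 10 members. The targeted gene MYOCD had 0.400 RPKM in the knockdown library and 0.881 RPKM in the wild type library, 45.5% of the wild type level, close to the lowest values of the table. It averaged under 1 RPKM and so is not among the 12158 genes. With the pseudocount of 1 used below its log2 difference was -0.43, short of 1.5-fold. The epithelial keratins KRT7, KRT8 and KRT18 were between 1395 and 1776 RPKM in both libraries. Other epithelial markers were far lower: CDH1 had 22.5 RPKM in the knockdown and 23.8 RPKM in the wild type library. EPCAM had 2.15 RPKM in the knockdown and 2.24 RPKM in the wild type library. The lung lineage markers NKX2-1, SFTPB and SFTPC were not among the lines, and NAPSA had 0.771 RPKM in the knockdown and 1.27 RPKM in the wild type library. Of 9 leukocyte, endothelial and fibroblast markers only CD14 and COL1A1 had a line, each under 4 RPKM in both libraries.

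Most of the pathway was present at closely similar levels in both libraries, and 2 genes stood out. DGCR8 and EIF2C3 were at least 1.5-fold higher in the knockdown library, 2 of 10 members against 1.65% of all genes tested. At least 1.5-fold lower were 0 members, against 3.20% of all genes. DGCR8 alone was at least 2-fold higher, which 0.650% of all genes were, and 0 members were 2-fold lower, against 0.724%. These folds, and all log2 differences below, were computed after adding a pseudocount of 1 to both RPKM values, so changes of low genes are understated. They are given as knockdown over wild type. The median log2 difference was 0.15 over the 10 members, with 7 above 0 and 3 below. Over all genes tested it was 0.01, with 6332 above 0 and 5826 below. With the libraries set to equal sums over all lines of the table, the medians were -0.04 over the members and -0.17 over all genes. That scaling, by a log2 factor of 0.199, counts lines with no gene name. Over named genes alone the factor was 0.0068. DROSHA, PRKRA and TNRC6A were below 0 with the scaling over all lines, though above its median of all genes. As deposited, the 8 members other than DGCR8 and EIF2C3 lay between -0.29 and 0.29. That range holds 77.8% of all genes tested, so differences of that size were common in these libraries. The RNA is that of whole cultures, in which fewer cells with a message and less of it per cell cannot be told apart.

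The levels of the members, per length, were also put in order. In the knockdown library the order from the top was DGCR8, PRKRA, XPO5, DROSHA, TARBP2, TNRC6A, EIF2C2, DICER1, EIF2C1 and EIF2C3. In the wild type library it was PRKRA, TARBP2, DROSHA, XPO5, EIF2C2, TNRC6A, DICER1, DGCR8, EIF2C1 and EIF2C3. DGCR8 thus had rank 1 in the knockdown library and rank 8 in the wild type library, and TARBP2 rank 5 in the knockdown library and rank 2 in the wild type library. With no replicate spread, which neighbours in these orders differ cannot be said.

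**Figure D1:**
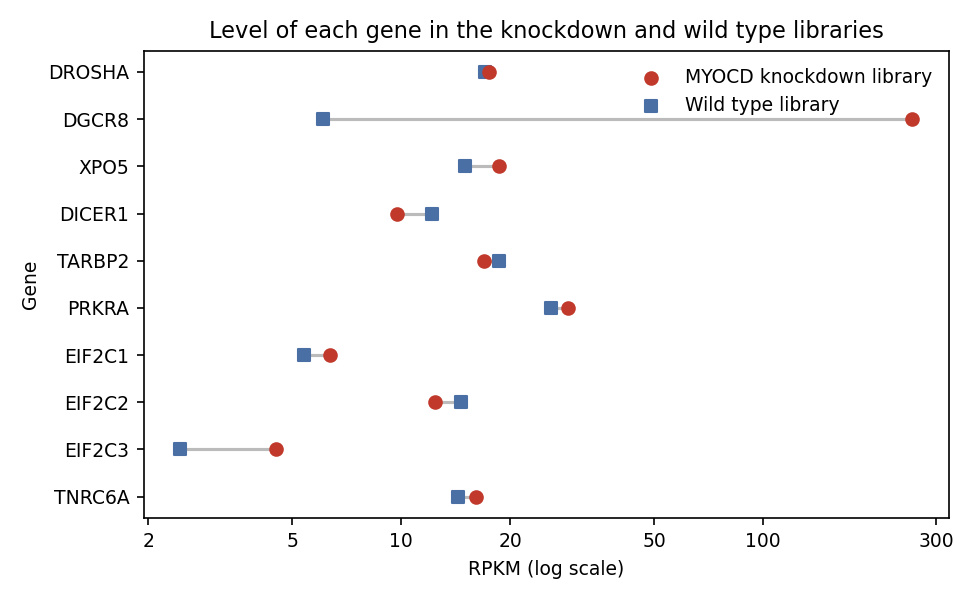
RPKM of each member (log axis) in the MYOCD knockdown library (circles) and the wild type library (squares), with 1 library per group and a grey line joining the pair. DGCR8 has 258 RPKM in the knockdown and 6.09 RPKM in the wild type library, EIF2C3 has 4.50 RPKM in the knockdown and 2.46 RPKM in the wild type library, whereas the other pairs lie closer together.

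**Figure D2:**
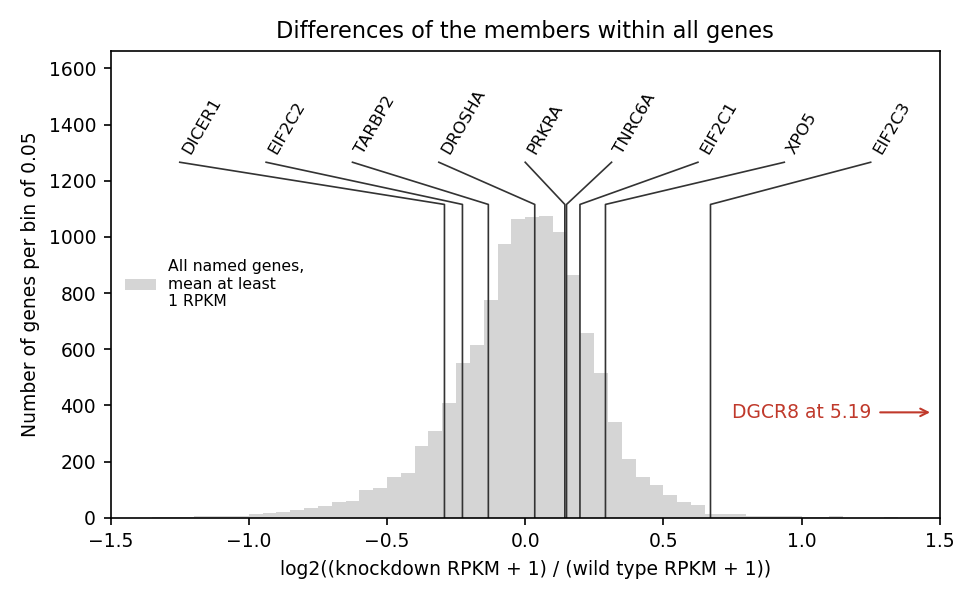
Histogram of log2 differences (knockdown over wild type, pseudocount 1) of named genes averaging 1 RPKM or more, in bins of 0.05, with the members marked by lines. The axis ends at -1.5 and 1.5, which leaves out 46 genes below and 61 above, among them DGCR8 at 5.19; EIF2C3 at 0.67 lies in the upper tail and the other 8 in the body of the distribution.

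Of the Microprocessor genes, DROSHA differed little, while the value of the DGCR8 locus differed most of the 10. DROSHA, the nuclease, on the minus strand of chr5:31400497-31532196, had 17.5 RPKM in the knockdown library and 17.1 RPKM in the wild type library. Its log2 difference of 0.03 was the nearest to 0 of the 10, and its sign turned with scaling, to -0.15 when the libraries were set to equal sums over all lines of the table, while equal sums over named genes gave 0.03. DGCR8, its partner, was listed at 258 RPKM in the knockdown library and 6.09 RPKM in the wild type library, a log2 difference of 5.19. It ranked 29th from the highest among the 12158 genes, and its level stood at percentile 97.5 of those genes in the knockdown library and at percentile 28.6 in the wild type library. Because the hairpins of miR-3618 and miR-1306 shown above lie within its exons on the same strand, the value belongs to the locus and cannot be read as the level of the DGCR8 message.

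Loci like DGCR8 were examined as a class, made after its value was seen, to put that value in context. Among 122 protein-coding genes with a microRNA gene overlapping an exon, 7 (5.74%), DGCR8 itself included, differed by at least 2-fold in either direction. Where the microRNA genes were intronic, as in DICER1, 2 of 524 genes did (0.382%), and where no short RNA gene lay inside, 49 of 10140 did (0.483%). Most genes with an exonic hairpin thus differed little, and the median log2 difference of that class was 0.00. DGCR8 was the second highest of the 122. The other 6, named after their values were seen, were MXD4, TMEM42, PHC2 and GPRC5A, which were higher, and CPSF1 and CHPF2, which were lower. TMEM42 came nearest to DGCR8, with 540 RPKM in the knockdown library and 14.5 RPKM in the wild type library. Large values of this class occurred in both libraries: CPSF1 had 27.3 RPKM in the knockdown library and 2024 RPKM in the wild type library. Whether the hairpins account for these values was not tested.

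**Figure D3:**
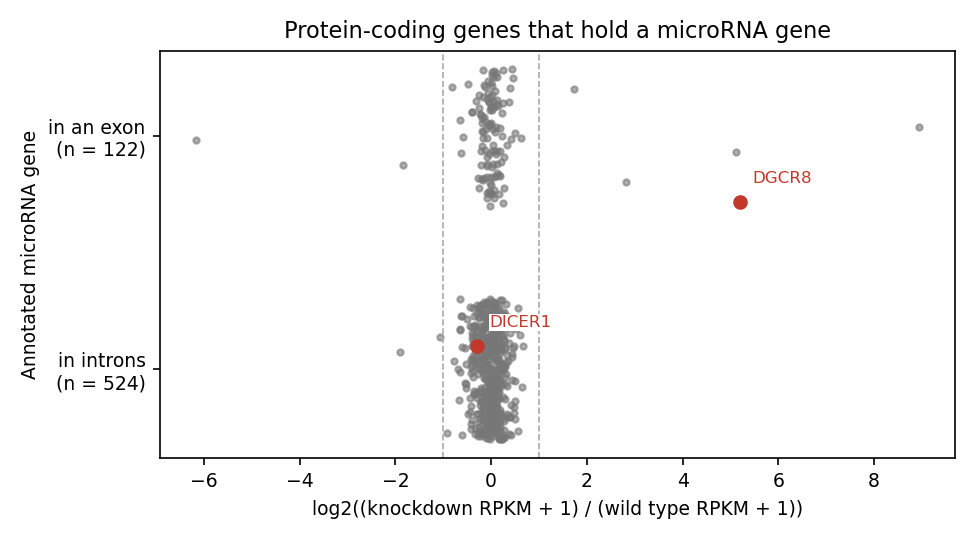
Log2 difference (knockdown over wild type, pseudocount 1) of each protein-coding gene that holds a microRNA gene on its own strand, split by whether a hairpin overlaps an exon (122 genes) or all lie in introns (524 genes); dashed lines mark 2-fold and vertical scatter has no meaning. DGCR8, at 5.19, is among 7 exonic hosts beyond the lines, and DICER1, at -0.29, lies within the cloud of intronic hosts.

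The genes of nuclear export and cytoplasmic cutting, XPO5 and DICER1, differed little in RNA level. XPO5, which encodes exportin 5 (minus strand, chr6:43522330-43576075), had 18.6 RPKM in the knockdown library and 15.1 RPKM in the wild type library, a log2 difference of 0.29. POLR1C, an RNA polymerase subunit gene, overlaps 40090 bases of XPO5 on the opposite strand, counted over whole gene spans with introns. It had 21.9 RPKM in the knockdown and 23.0 RPKM in the wild type library. A small Cajal body RNA gene overlaps 127 bases of XPO5 on that strand too. The sources used here do not say whether the authors' counting used strand, so reads of overlapping genes may not have been told apart. Each of the 10 members has some annotated gene on the opposite strand. It is a protein-coding one in 3, over only 12 bases for DGCR8 and 167 bases for PRKRA. DICER1, the nuclease that removes the loop, had 9.74 RPKM in the knockdown library and 12.1 RPKM in the wild type library. Its log2 difference of -0.29 was the lowest of the 10. The ratio of DROSHA to DICER1 RPKM was 1.80 in the knockdown library and 1.40 in the wild type library.

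The partners of DICER1 are a pair of related double-stranded RNA-binding proteins. TARBP2, which encodes TRBP (plus strand, chr12:53500921-53506431), had 16.9 RPKM in the knockdown library and 18.7 RPKM in the wild type library, a log2 difference of -0.13. PRKRA, which encodes PACT, an activator of the kinase PKR as well (minus strand, chr2:178431414-178451512), stood on 2 lines that were summed to 28.8 RPKM in the knockdown library and 26.0 RPKM in the wild type library. It was the highest member in the wild type library and, apart from the DGCR8 locus, in the knockdown library too. One PRKRA line had 25.6 RPKM in the knockdown and 23.6 RPKM in the wild type library. Its nearest neighbours with a matched name were TTC30A and FKBP7, genes of the minus strand. The other line had 3.23 RPKM in the knockdown and 2.45 RPKM in the wild type library. Its nearest were OSBPL6 and DFNB59 (now PJVK), genes of the plus strand. On that strand DFNB59 overlaps 167 bases of PRKRA and an antisense gene 8830 bases. The order of lines alone does not show which strand a line covers. The line among minus-strand genes alone gave a log2 difference of 0.12, against 0.14 for the sum. With the libraries set to equal sums over all lines the 2 lines together gave -0.05, and with equal sums over named genes 0.14.

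As deposited, the Argonaute genes summed to nearly the same level in both libraries, with different shares. EIF2C1, EIF2C2, EIF2C3 and EIF2C4 (now AGO4, an Argonaute gene outside the 10) summed to 25.2 RPKM in the knockdown library and 25.1 RPKM in the wild type library. With the libraries set to equal sums over all lines of the table the knockdown sum becomes the lower, while the shares stay the same. EIF2C2, which encodes AGO2, the Argonaute known for cutting its targets (minus strand, chr8:140520156-140635619), had 12.4 RPKM in the knockdown library and 14.7 RPKM in the wild type library. It was the highest Argonaute gene in both, at 49.2% of the sum in the knockdown and 58.5% in the wild type library. EIF2C3 made up 17.9% of the sum in the knockdown library and 9.79% in the wild type library. EIF2C1 had 6.35 RPKM in the knockdown library and 5.40 RPKM in the wild type library. EIF2C4 had 1.95 RPKM in the knockdown library and 2.54 RPKM in the wild type library. The order from the top was EIF2C2, EIF2C1, EIF2C3, EIF2C4 in the knockdown library, and EIF2C4 stood just above EIF2C3 in the wild type library.

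EIF2C3 was the member without a short RNA gene that differed most. It had 4.50 RPKM in the knockdown library and 2.46 RPKM in the wild type library, the lowest level of the 10 in each. The ratio of the levels was 1.83, and the log2 difference of 0.67 (1.59-fold with the pseudocount) ranked 137th from the highest of 12158 genes. Because its level is low, it was set beside genes of like level. Of 1880 named genes averaging 2 to 5 RPKM, 27 (1.44%) were at least as high and 75 (3.99%) lay at least as far below 0. EIF2C3 was no longer past 1.5-fold with a pseudocount of 5 (0.35). Nor was it with equal sums over all lines of the table (0.52), where the median of all genes was -0.17. With equal sums over named genes it was past 1.5-fold (0.67). An annotated antisense gene, to which no value was matched, overlaps 21522 bases of the EIF2C3 span on the opposite strand. Whether its reads entered the EIF2C3 value cannot be told, since use of strand is not given.

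Neighbouring Argonaute genes did not share one direction. EIF2C4, EIF2C1 and EIF2C3 follow each other on the plus strand of chromosome 1, at chr1:35808172-35857890, chr1:35869808-35930528 and chr1:35930718-36072500. The gap between EIF2C1 and EIF2C3 is 189 bases and that between EIF2C4 and EIF2C1 is 11917 bases. Along this run the log2 differences were -0.26, 0.20 and 0.67. The ratio of EIF2C1 to EIF2C3 RPKM was 1.41 in the knockdown library and 2.2 in the wild type library.

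**Figure D4:**
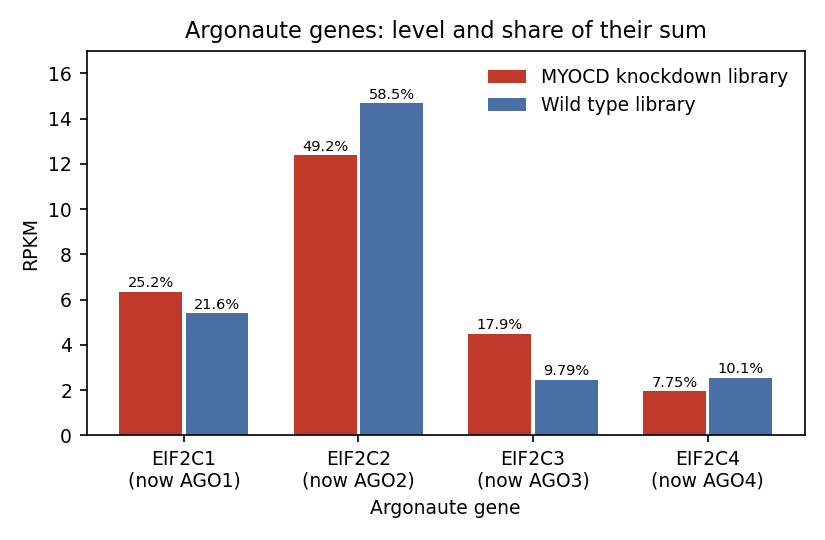
RPKM of the 4 Argonaute genes in the MYOCD knockdown library (left bars) and the wild type library (right bars), with each gene's percent of the summed Argonaute RPKM above its bar; there is 1 library per group and no error bar. EIF2C3 holds 17.9% in the knockdown and 9.79% in the wild type library, and EIF2C2 holds 49.2% in the knockdown and 58.5% in the wild type library.

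TNRC6A, which encodes a GW182 protein that links Argonaute to the deadenylases (plus strand, chr16:24610209-24827632), had 16.1 RPKM in the knockdown library and 14.4 RPKM in the wild type library. Its log2 difference was 0.15, or -0.04 with the libraries set to equal sums over all lines and 0.14 with equal sums over named genes. Its paralogs were far lower per length: TNRC6B had 2.05 RPKM in the knockdown and 1.90 RPKM in the wild type library. TNRC6C had 0.683 RPKM in the knockdown and 0.444 RPKM in the wild type library. The PIWI genes PIWIL1 to PIWIL4, the germline branch of the family, were looked for and had no line among the values used here.

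A short sequence word was looked up in the 3′ UTRs of the members. The word AATATGC, which an earlier search of these same data had picked as common in the 3′ UTRs of genes lower in the knockdown library, occurs in the longest annotated 3′ UTR of 4 of the 10 members and of 11.6% of 10123 genes tested that hold no short RNA gene (this strand of the message only). The members are DICER1 with 3 matches, EIF2C2 with 2, and EIF2C1 and EIF2C3 with 1 each. Their 3′ UTRs run from 4270 to 16755 bases against a median of 1390 over those genes, and a longer UTR has more chances to hold a word. The matches, from GENCODE release 29 transcripts, are shown with the word in capitals and 11 bases on each side, 5′ to 3′ on the message strand, except for EIF2C2.
DICER1, minus strand, chr14:95089461-95089467: atcacacctaaAATATGCtgcagatttta
DICER1, minus strand, chr14:95087677-95087683: atttcttttatAATATGCtttccgcagtc
DICER1, minus strand, chr14:95087558-95087564: catttcaagaaAATATGCttaacagagag
EIF2C1, plus strand, chr1:35926392-35926398: tcaattggcaaAATATGCtggagcacatt
EIF2C3, plus strand, chr1:36071774-36071780: tctaagtctgtAATATGCtgtaggaccag
The log2 differences of these 4 members lay on both sides of 0: -0.29 (DICER1), -0.23 (EIF2C2), 0.20 (EIF2C1) and 0.67 (EIF2C3). Since the word came from these libraries, this is a description and no evidence about it. A match to the CArG box, the sequence bound by serum response factor (CC, then A or T at each of 6 positions, then GG; it reads the same way on both strands), was found in 0 of 17 RefSeq promoter windows of 9 members (250 bases before to 50 after a start), and in 1.29% of all 35116 such windows. Those letters not being in these windows says nothing about more distant sites.

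Around the 10 members, 6 lists of pathway genes held 89 names, of which 80 were in the table and 79 passed the level filter. Their median log2 difference was 0.05, with 1 gene of the 79 past 1.5-fold in each direction. Among all genes tested, 1.65% passed that size upward and 3.2% downward, so these counts do not set the lists apart. With equal sums over all lines, which moved the median of all genes to -0.17, the medians of 4 lists given as positive (Microprocessor cofactors, RAN cycle, tailing and decay, silencing effectors) lay between -0.16 and -0.10. Among 17 proteins reported to bind the Microprocessor or primary microRNAs, 13 were above 0 and 4 below, with a median of 0.06. DDX5, the helicase p68, had 1189 RPKM in the knockdown library and 4479 RPKM in the wild type library, a log2 difference of -1.91. This locus holds MIR3064 and MIR5047 in introns and was, with SLC16A3, 1 of the 2 genes with intronic hairpins past 2-fold. Its paralog DDX17 had 78.3 RPKM in the knockdown library and 71.6 RPKM in the wild type library. The cap-binding gene NCBP1 was highest, with 28.8 RPKM in the knockdown and 21.6 RPKM in the wild type library. HNRNPA1, which is known to bind some primary microRNAs, was second lowest at -0.11.

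The genes of the RAN cycle, which powers export by exportin 5, and of related karyopherins lay between -0.14 and 0.16 in 7 of 7 cases. XPO1 and RANGAP1 were highest, at 0.16 and 0.14, and XPOT, the exportin of transfer RNAs, and RCC1 lowest, at -0.14 and -0.09. The loci of RANGAP1 and RCC1 hold short RNA genes. Among 12 measured genes that tail or degrade microRNA precursors and mature microRNAs, the median was 0.08. LIN28B, which binds let-7 precursors and blocks their processing, had 3.77 RPKM in the knockdown library and 1.57 RPKM in the wild type library, a log2 difference of 0.90. Its level was low in both libraries, and unlike EIF2C3 it was not set beside genes of like level. DIS3L2, the exonuclease known to degrade uridylated let-7 precursors, had 11.5 RPKM in the knockdown library and 8.04 RPKM in the wild type library. Its locus holds MIR562. The uridylyl transferases that tail these precursors were alike in both: ZCCHC11 (now TUT4) had 9.84 RPKM in the knockdown and 9.36 RPKM in the wild type library. ZCCHC6 (now TUT7) had 8.38 RPKM in the knockdown and 8.32 RPKM in the wild type library. ZC3H12A, whose locus holds MIR6732, and TSN were lowest, at -0.25 and -0.04.

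Argonaute loading needs the HSP90 machinery, and its genes differed among themselves. HSPA8 had 736 RPKM in the knockdown library and 557 RPKM in the wild type library; it holds small nucleolar RNA genes. HSP90AA1 had 1077 RPKM in the knockdown library and 858 RPKM in the wild type library, while HSP90AB1, the other cytosolic HSP90 gene, had 553 RPKM in the knockdown library and 798 RPKM in the wild type library. P4HA1, a subunit of the prolyl hydroxylase reported to modify AGO2, was next lowest, with a log2 difference of -0.38. The list of 17 had a median of -0.02, with 7 genes above 0 and 10 below. The 24 measured deadenylation, decapping and repressor genes that act after TNRC6 proteins had a median of 0.05 and ran from -0.30 to 0.36. RQCD1 (now CNOT9), the CCR4-NOT subunit that binds TNRC6 proteins, had 43.5 RPKM in the knockdown library and 33.7 RPKM in the wild type library. CNOT6 (0.31) and its paralog CNOT6L (-0.30), both deadenylases, lay on opposite sides of 0, and CNOT8 was at -0.21.

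**Figure D5:**
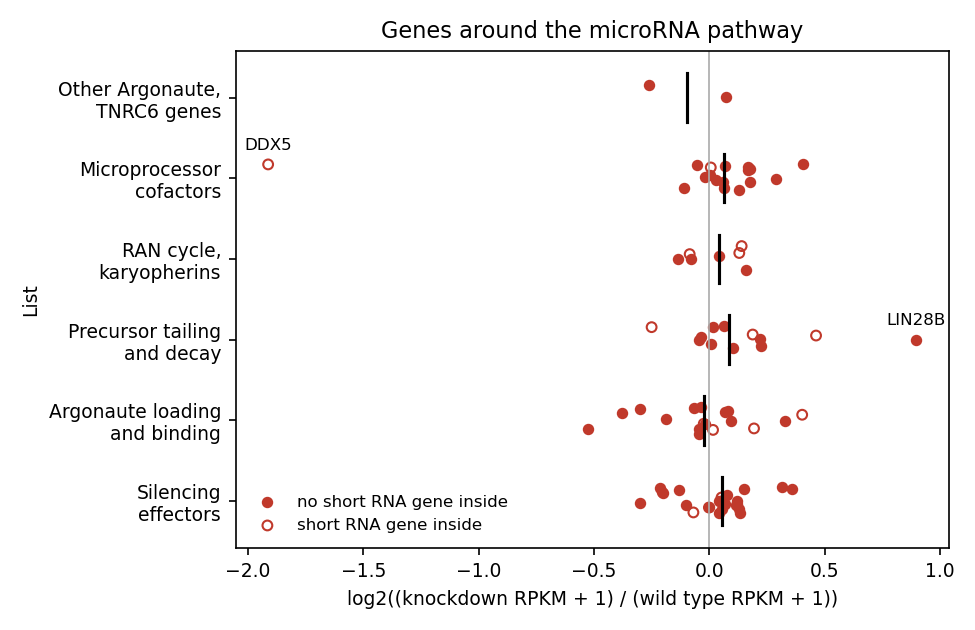
Log2 difference (knockdown over wild type, pseudocount 1) of each measured gene in 6 lists around the microRNA pathway, 1 point a gene, with the list's median as a black line; open circles hold a microRNA, small nucleolar or Cajal body RNA gene on their strand. DDX5 at -1.91 and LIN28B at 0.90 lie past 1.5-fold, and the other points lie within it.

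The lines of microRNA genes themselves were widely scattered. Of 54 microRNA genes with a line of their own and an average of 1 RPKM or more, 10 were listed at 0 in the knockdown library and 16 in the wild type library. Among the 28 above 0 in both, 3 were 2-fold or more above and 5 as far below. The TruSeq RNA kit that was used is not designed for RNAs as short as mature microRNAs, so these lines are not read as levels of mature microRNAs. The 4 highest of the 28 are shown with the mature sequences from RefSeq (GRCh38.p14, seed in capitals), as the microRNA genes with the most signal in both libraries.
hsa-miR-663a: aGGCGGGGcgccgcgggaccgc
hsa-miR-3661: uGACCUGGgacucggacagcug
hsa-miR-762: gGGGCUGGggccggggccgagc
hsa-miR-29c-3p: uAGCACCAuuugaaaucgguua
MIR663 had 6614 RPKM in the knockdown library and 5659 RPKM in the wild type library. MIR3661 had 4631 RPKM in the knockdown library and 4901 RPKM in the wild type library. MIR762 had 1266 RPKM in the knockdown library and 2976 RPKM in the wild type library. MIR29C had 1361 RPKM in the knockdown library and 533 RPKM in the wild type library. MIR762 and MIR29C thus differed by over 2-fold in opposite directions. No seed was shared among these microRNAs and those inside DGCR8 and DICER1.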

How the data were processed

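RNA-seq of total RNA from A549 cells was available as RPKM values per locus, 1 library of MYOCD knockdown and 1 of wild type cells, which the authors deposited in 1 table of 14952 lines. Per the submitters' processing notes, TopHat2 2.0.10 and Cufflinks 2.2.1 were used in some role, and the named builds are BDGP5 and GRCh38.p12. The sources used here do not give the annotation, the filters or any use of strand. In every line the higher library was at least 0.652 RPKM. Lines with no gene name (12.8%) were left out. Single-read steps were looked for in 2212 lines where neither library reached 2 RPKM; the densest window of 0.01 in the log2 ratios held 29, and no depth could be read from them.

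Values of a name on several lines were summed, and each log2 difference is that of knockdown RPKM + 1 over wild type RPKM + 1. Sets of genes are described by counts past 1.5-fold and 2-fold and by medians. Names were matched to GENCODE release 29 (GRCh38), through RefSeq synonyms where needed, for 93.2% of names; the authors' loci may have other boundaries. Short RNA genes are microRNA, small nucleolar and small Cajal body RNA genes inside a gene on its strand. The genes named were the 10 members, MYOCD, the 2 highest and 2 lowest of each list (all, where 5 or fewer were measured), LIN28B, short RNA genes inside members and the 4 highest microRNA genes above 0 in both libraries; a gene that this rule takes is not reported here. DDX17, ZCCHC11, ZCCHC6 and POLR1C were added after their values were seen, as were the classes of exonic and intronic hairpins and the genes of like level. The members and lists were chosen with earlier results of these data known. Calculations used Python 3.11.15, numpy 2.4.6 and pandas 2.3.3, and were tested on simulated data.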

Additional observations from a re-analysis of the deposited data

How the results depend on the processing

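Among the 7 alternatives recomputed for every member, DICER1, DGCR8, XPO5, TARBP2, EIF2C1, EIF2C2 and EIF2C3 kept their direction in all 7. Not all 7 could turn a direction: a change of pseudocount cannot, and keeping 1 line per name altered only PRKRA among the members. With equal sums over all lines XPO5 was at 0.10 and EIF2C1 at 0.03. With equal summed RPKM over all lines the median of all genes moved to -0.17 and that of the members to -0.043, with DROSHA at -0.15, PRKRA at -0.05 and TNRC6A at -0.04; with equal 75th percentiles DROSHA was at -0.0015. Members at least 1.5-fold higher numbered 2 as deposited and 1 with a pseudocount of 5, with equal sums over all lines, or without loci holding a short RNA gene, where 0 were 2-fold higher. DGCR8 ranged from 4.57 to 5.38, EIF2C3 from 0.35 to 0.85. MYOCD was -0.43, and -0.97 and -0.12 with pseudocounts of 0.1 and 5.

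Over all genes, 201 were 1.5-fold higher, 389 1.5-fold lower and 88 2-fold lower. These counts were 345, 615 and 189 with a pseudocount of 0.1, 97, 125 and 53 with a pseudocount of 5, and 113, 810 and 146 with equal sums over all lines. In protein-coding genes free of short RNA genes, 0.927% were 1.5-fold higher, 0.108% 2-fold higher and 0.375% 2-fold lower. With equal sums over all lines 4 of 6 list medians turned from above to below 0 (-0.13, -0.16, -0.10 and -0.13), and the RAN cycle median was -0.02 without genes holding a short RNA gene. None passed 1.5-fold in 8 alternatives each, the removal of genes holding a short RNA gene (chosen after seeing the data) among them. With no depth and no replicates, no difference here has an error. No paired analysis was possible because each group has 1 library.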
